A study of Blattella germanica with 16 samples.

Results

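The genes examined here are the ecdysone receptor and the ecdysone-induced genes of the German cockroach, Blattella germanica, in the fat body of adult females. They were taken as every gene whose annotated product name contains "ecdys" and that had 10 or more reads in at least 4 of the 16 libraries. This gave 3 genes of 28676 in the table. EcR (C0J52_08790, annotated as ecdysone receptor) lies on contig PYGN01000312.1 from 462524 to 473000 of assembly Bger_1.1. Eip75B (C0J52_26014, ecdysone-induced protein 75B) lies on PYGN01001000.1 from 389781 to 413002. Eip74EF (C0J52_22825, ecdysone-induced protein 74EF isoform B) lies on PYGN01002002.1 from 180060 to 182761. None of the 3 overlaps another annotated gene. A further 2 genes carry the word in their names, Eip78C (C0J52_17698) and the ecdysteroid UDP-glucosyltransferase EGT (C0J52_18329), and both had 0 reads in all 16 libraries. The rule therefore left out only genes with no read.

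Ecdysteroids are the steroid hormones that drive moulting in insects, and in adult females they are made by the ovary. The active form, 20-hydroxyecdysone, binds EcR, a nuclear receptor that works as a pair with RXR, the insect counterpart of which is called ultraspiracle in flies. In Drosophila the bound pair switches on a small set of early genes, among them Eip75B, which encodes a nuclear receptor that binds heme, and Eip74EF, which encodes a transcription factor of the ETS family. These factors in turn set the expression of later genes. The fat body is the insect organ of storage and metabolism, and it makes yolk protein precursors under juvenile hormone in cockroaches. It is also a target of ecdysteroids and of insulin signalling.

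All females, controls included, received 2 injections of double-stranded RNA, each of 2 µg, to degrade the transcript that shares its sequence, and 4 libraries were made per group. In the groups dsInR1, dsInR2 and dsInR3 it targeted 1 of 3 insulin receptors, and in the control group dsMock it was a polyhedrin sequence, going by the column names. By the design text, females were injected at the start of ootheca transport and again 7 days later, lost their ootheca on day 12 and were dissected 5 days into the next cycle. By the treatment protocol, the injections fell 12 and 5 days before extraction, and which timing applies could not be settled. The strain is not named beyond a laboratory population, and neither the number of animals behind a library nor whether libraries came from separate animals is given. The p-values below therefore measure only the spread between these samples, which may be technical. Libraries are named by group and by the number in their column, which is not the replicate number of the sample title.

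Total counts were 15.3 to 23.7 M reads per library. The table holds 1 gene annotated as an insulin receptor, InR, and it is not stated which of the 3 receptors this is. Its level was 50.9 to 54.6 CPM (read counts scaled by library size with TMM factors) in dsMock, 46.2 to 51.4 in dsInR1, 3.42 to 7.90 in dsInR2 and 30.4 to 46.1 in dsInR3. With 1 such gene, whether each treatment lowered its own target could not be checked here. The dsInR2 libraries stood apart from the rest: the most abundant gene of the series, C0J52_15443, took 35.1 to 60.9% of the reads in the other libraries and 2.3e-04 to 6.99% in dsInR2, and library 3 of dsInR3 was the lowest outside dsInR2. A fat body marker list of apolipophorin, hexamerin, transferrins and Cr-PI allergens had reads for 9 of 9 genes in each group, with a summed level of 50472 to 63528 CPM in dsMock and 239146 to 367909 CPM in dsInR2. By the edgeR test described below, 6 of the 9 were higher and 1 lower in dsInR2 against dsMock, beside 17.6% and 14.7% of all tested genes. Among the genes of this fat body list, the highest values over all 16 libraries were 134066 CPM for the allergen CRPI_3, 116591 for CRPI_2 and 77228 for apolipophorin. In bulk samples, fewer cells of a type and less RNA per cell cannot be told apart.

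EcR was the most variable of the 3 genes between libraries of 1 group. In dsMock it stood at 71.4, 77.3, 46.9 and 45.6 CPM in libraries 1, 3, 4 and 5 (mean 60.3 ± 16.4, SD, n = 4). In dsInR1 it stood at 72.9, 14.1, 20.9 and 40.6 CPM in libraries 2, 5, 6 and 7 (37.1 ± 26.4, SD, n = 4). Library 2 of dsInR1 was within the dsMock range and the other 3 were below all dsMock libraries. In dsInR2 EcR stood at 39.1, 23.1, 13.8 and 87.1 CPM in libraries 1, 4, 7 and 8 (40.8 ± 32.6, SD, n = 4), and in dsInR3 at 16.6, 14.5, 32.0 and 21.3 CPM in libraries 3, 5, 6 and 7 (21.1 ± 7.79, SD, n = 4). The highest EcR value of all 16 libraries and the lowest both belonged to dsInR2, while all 4 dsInR3 libraries lay below all 4 dsMock libraries.

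**Figure D1:**
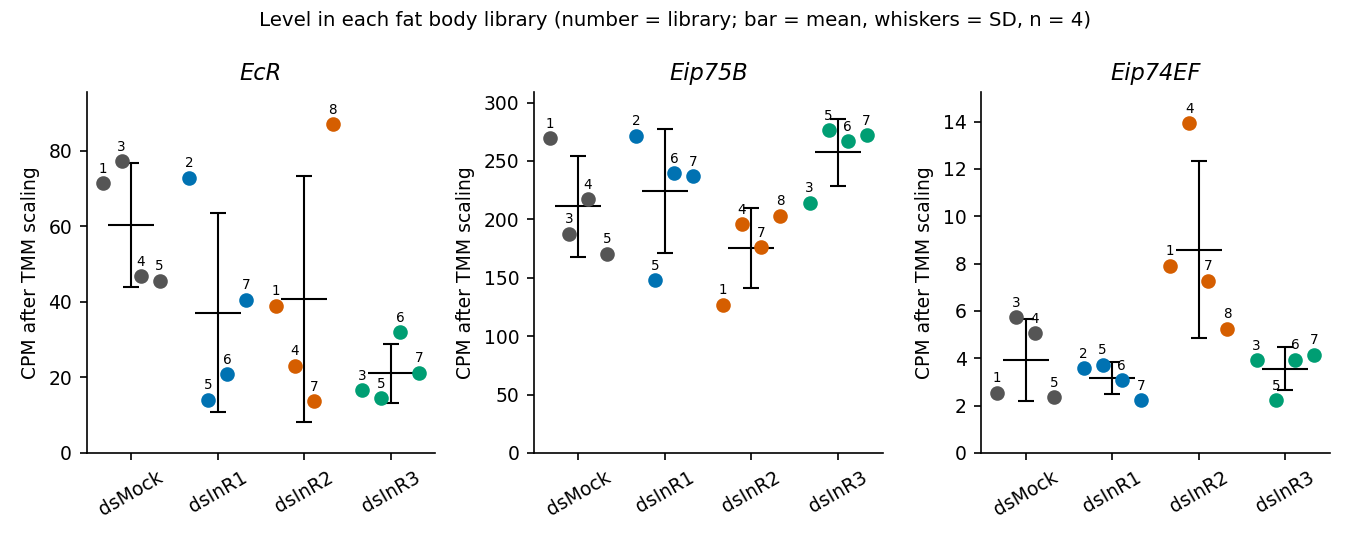
CPM after TMM scaling (linear axes from 0) of EcR, Eip75B and Eip74EF in each of the 16 fat body libraries, by group; each point is 1 library with its number, the horizontal bar is the mean and the whiskers are the SD (n = 4). EcR in dsInR3 (14.5 to 32.0 CPM) lies below all dsMock libraries (45.6 to 77.3 CPM), and Eip74EF in dsInR2 (5.25 to 13.9 CPM) lies above every dsInR1 and dsInR3 library.

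No difference in EcR passed the test in any of the 6 comparisons of groups. The test was edgeR's quasi-likelihood test on the counts, adjusted by the Benjamini-Hochberg method over 10536 tested genes with a threshold of 0.05, and it is the source of every adjusted p below. The fitted difference was largest between dsInR3 and dsMock, with a log2 fold change of -1.52 (SE 0.55, 95% interval -2.68 to -0.36) that corresponds to a 2.87-fold lower level in dsInR3. The unadjusted p was 0.0138 and the edgeR adjusted p was 0.199. Of all tested genes, 14.7% had an unadjusted p under 0.05 in this comparison, 4.59% were lower in dsInR3 with groups that do not overlap, and 0.304% passed after adjustment (0.199% higher, 0.104% lower), of which none was one of the 3 genes. The exact two-sided permutation p for EcR was 0.0286, the smallest that 4 against 4 libraries can give, among 18 such tests made on the 3 genes. With any of the 22 alternative settings the log2 fold change lay between -1.79 and -1.38 and the edgeR or DESeq2 adjusted p between 0.0699 and 0.423. Without library 3 of dsInR3 it was -1.42.

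Against dsMock, the log2 fold change of EcR was -0.70 (SE 0.54, 95% interval -1.84 to 0.44) in dsInR1 and -0.56 (SE 0.53, 95% interval -1.70 to 0.57) in dsInR2. Neither passed, with edgeR adjusted p-values of 0.99996 and 0.458, and 3 of 4 libraries were below all dsMock libraries in each. With 1 library left out, the dsInR1 value ranged from -1.26 (without dsInR1 library 2, edgeR unadjusted p = 0.0350, adjusted p = 1) to -0.43 (without dsInR1 library 5). The dsInR2 value ranged from -1.25 (without dsInR2 library 8, edgeR adjusted p = 0.0785) to -0.28 (without dsInR2 library 7). In that group EcR was 87.1 CPM in library 8 and 39.1 CPM in library 1, where C0J52_15443 took 2.3e-04% and 0.0822% of the reads, and 23.1 and 13.8 CPM in libraries 4 and 7, where it took 6.99% and 6.38%; its part in the EcR result was not tested. Between receptor treatments the intervals were wide, and dsInR2 against dsInR3 gave 0.95 (SE 0.54, edgeR adjusted p = 0.224), dsInR1 against dsInR3 gave 0.82 (SE 0.54, edgeR adjusted p = 0.687), and dsInR1 against dsInR2 gave -0.14 (SE 0.53, edgeR adjusted p = 0.883). The dsInR2 against dsInR3 value was 0.27 without dsInR2 library 8 and 1.24 without dsInR2 library 7. The dsInR1 against dsInR3 value was 0.26 without dsInR1 library 2 and 1.09 without dsInR1 library 5, and none of these 4 values passed.

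RXR (C0J52_15477), the partner with which EcR binds DNA, fell in dsInR2. It stood at 5.83, 10.1, 7.87 and 7.77 CPM in dsMock libraries 1, 3, 4 and 5 and at 2.22, 3.42, 2.73 and 3.82 CPM in dsInR2 libraries 1, 4, 7 and 8. The groups did not overlap, as for 14.4% of tested genes in that direction, and the log2 fold change was -1.37 (SE 0.27, edgeR adjusted p = 0.0015). RXR was also lower in dsInR2 than in dsInR1, where it stood at 5.66, 7.34, 11.1 and 8.20 CPM (log2 fold change of dsInR1 against dsInR2 1.40, SE 0.27, edgeR adjusted p = 0.0014). Against dsInR3 the dsInR2 value was -0.72 (SE 0.27, edgeR adjusted p = 0.0687), which did not pass, and the groups overlapped. In dsInR3 it stood at 2.90, 6.36, 4.69 and 6.25 CPM in libraries 3, 5, 6 and 7, and the log2 fold change against dsMock of -0.65 did not pass (SE 0.27, edgeR adjusted p = 0.276). In dsInR1 against dsMock it was 0.031 (SE 0.27), and its sign turned under 3 of 22 alternatives. The EcR and RXR values against dsMock share the dsMock libraries.

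Eip75B was the steadiest of the 3 genes and did not differ from dsMock beyond the test in any receptor treatment. Its level was 269, 188, 217 and 171 CPM in dsMock libraries 1, 3, 4 and 5 (211 ± 43.3, SD, n = 4). It was 271, 148, 239 and 237 CPM in dsInR1 libraries 2, 5, 6 and 7 (224 ± 53.1, SD, n = 4), and the groups overlapped. In dsInR2 it was 127, 196, 176 and 203 CPM in libraries 1, 4, 7 and 8 (175 ± 34.4, SD, n = 4), and in dsInR3 it was 214, 276, 267 and 272 CPM in libraries 3, 5, 6 and 7 (257 ± 29.1, SD, n = 4). All 4 dsInR3 libraries were above all 4 dsInR2 libraries, while both groups overlapped dsMock.

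The log2 fold change of Eip75B against dsMock was 0.084 (SE 0.20, 95% interval -0.35 to 0.52) in dsInR1, -0.27 (SE 0.20, 95% interval -0.70 to 0.17) in dsInR2 and 0.28 (SE 0.20, 95% interval -0.15 to 0.72) in dsInR3. The value in dsInR1 was so near 0 that its sign changed without library 2 of dsInR1 and without library 5 of dsMock. Between dsInR2 and dsInR3 the log2 fold change was -0.55 (SE 0.20, 95% interval -0.99 to -0.12), with an edgeR adjusted p of 0.0635 that missed the threshold. In that comparison, 11.4% of tested genes were lower in dsInR2 with groups that do not overlap. DESeq2 gave -0.57 with an adjusted p of 0.0307, and the edgeR adjusted p also passed without library 5 of dsInR1 (0.0391), library 3 of dsInR3 (0.0473) or library 1 of dsMock (0.0434). The other pairs of receptor treatments gave 0.35 (SE 0.20, edgeR adjusted p = 0.212) for dsInR1 against dsInR2 and -0.20 (SE 0.20, edgeR adjusted p = 0.823) for dsInR1 against dsInR3.

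Eip74EF, the ETS factor, was the only 1 of the 3 genes that passed the test, and it rose in dsInR2. Its level was low, at 2.54, 5.73, 5.06 and 2.35 CPM in dsMock libraries 1, 3, 4 and 5 (3.92 ± 1.73, SD, n = 4). In dsInR2 it was 7.91, 13.9, 7.28 and 5.25 CPM in libraries 1, 4, 7 and 8 (8.59 ± 3.74, SD, n = 4). Of the 4 dsInR2 libraries, 3 were above all dsMock libraries and library 8 lay below the highest dsMock library. In dsInR1 it was 3.59, 3.72, 3.07 and 2.24 CPM in libraries 2, 5, 6 and 7 (3.15 ± 0.67, SD, n = 4), and in dsInR3 it was 3.93, 2.22, 3.94 and 4.15 CPM in libraries 3, 5, 6 and 7 (3.56 ± 0.90, SD, n = 4). Every dsInR2 library was above every dsInR1 and every dsInR3 library. These values rest on 39 to 355 reads, which gives a counting error of 5.31 to 16.01% (1 SD) that covers counting only.

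The log2 fold change of Eip74EF in dsInR2 against dsMock was 1.14 (SE 0.34, 95% interval 0.41 to 1.87, edgeR adjusted p = 0.0184), a 2.20-fold higher level. In this comparison 32.3% of all tested genes passed and 17.6% passed as higher, so 1 of 3 genes is close to the share among all genes. The exact two-sided permutation p was 0.0571. The call was lost without library 4 of dsInR2 (log2 fold change 0.81, edgeR adjusted p = 0.0764), without dsMock library 1 (0.92, 0.0751) or without dsMock library 5 (0.96, 0.0601). With only the dsInR2 and dsMock libraries in the fit, the log2 fold change was 1.11 and the edgeR adjusted p was 0.0639.

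Eip74EF was lower in dsInR1 than in dsInR2, with a log2 fold change of -1.45 (SE 0.35, 95% interval -2.18 to -0.71, edgeR adjusted p = 0.0051). This call held without any 1 library, at -1.62 to -1.11. In that comparison 31.1% of tested genes passed, 16.8% as lower, and 15.3% were lower with groups that do not overlap. It was higher in dsInR2 than in dsInR3, by 1.27 (SE 0.34, 95% interval 0.54 to 1.999, edgeR adjusted p = 0.0142), where 22.9% of tested genes passed, 11.6% as higher, and 10.5% were higher with no overlap. The call between dsInR2 and dsInR3 was lost without library 4 of dsInR2 (0.94, edgeR adjusted p = 0.0536) and without library 5 of dsInR3 (1.099, edgeR adjusted p = 0.0524). Against dsMock the log2 fold change was -0.31 (SE 0.35) in dsInR1 and -0.13 (SE 0.34) in dsInR3, and between dsInR1 and dsInR3 it was -0.17 (SE 0.35), none of which passed. In dsInR1 against dsMock and in dsInR1 against dsInR3, 0% of all tested genes passed in edgeR, although 3.29% and 9.21% had an unadjusted p under 0.05 and DESeq2 called 10 and 86 genes, none of them one of the 3.

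**Figure D2:**
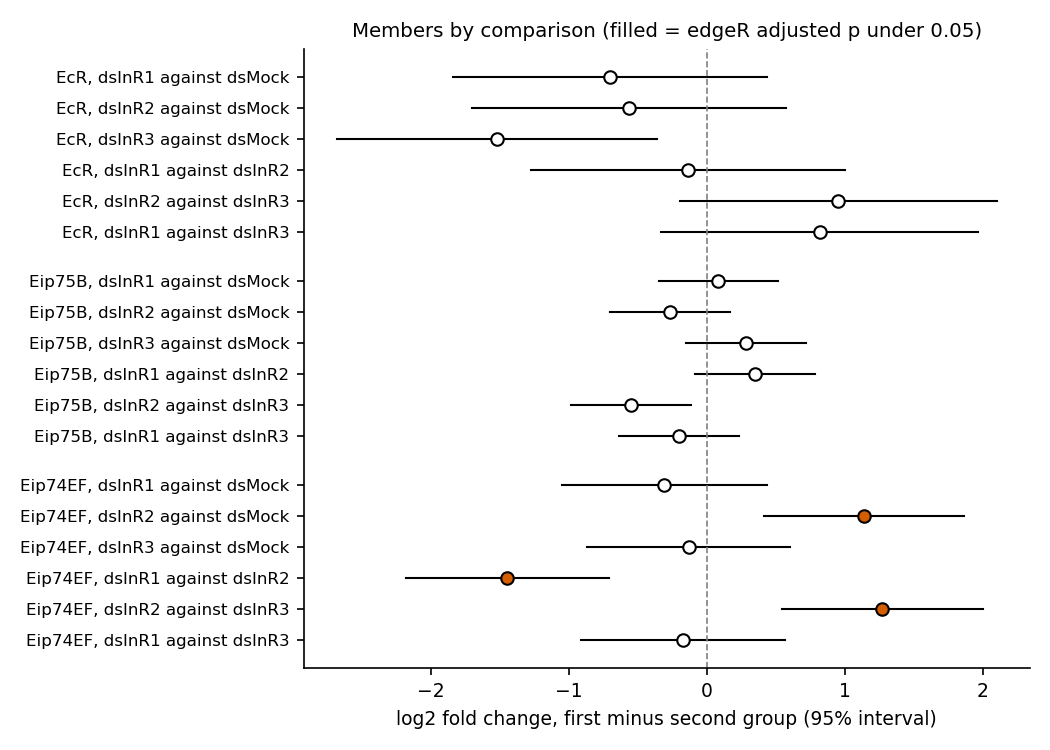
Fitted log2 fold change (first minus second group, points) with its 95% interval (lines) for each of the 3 genes in each of the 6 comparisons, from 4 libraries per group; filled points have an edgeR adjusted p under 0.05. The filled points are the 3 comparisons of Eip74EF that involve dsInR2, at 1.14, -1.45 and 1.27.

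Genes listed by product name for other cells that a dissected fat body can hold were set beside these values. Not every listed gene is particular to its cell type, so the sums do not measure the amount of those cells. The gut and Malpighian tubule list holds V-type proton ATPase subunits, such as ATP6V1B2 (median 201 CPM). It also holds the maltase gene Mal-B1_3, which ranged from 18.5 to 835 CPM (median 277) and made up a large part of that sum. In the ovary and germline list, Siwi ranged from 59.3 to 151 CPM (median 98.0) and made up most of the sum. The nervous tissue list holds celf2 (median 21.3 CPM) and NMNAT1, an adenylyltransferase taken in by the word nicotinic in its name. The summed level of 3 hemocyte genes was 189 to 226 CPM in dsMock, 138 to 386 CPM in dsInR2, 144 to 206 CPM in dsInR1 and 132 to 201 CPM in dsInR3, and none of the 3 passed against dsMock in any receptor treatment. The muscle list summed to 93.3 to 180 CPM in dsMock and 126 to 276 CPM in dsInR2, with 1 of 13 tested genes higher in dsInR2 and 1 of 15 listed genes, a troponin C (TpnC41C_1), at 0 reads throughout. Gut and Malpighian tubule genes summed to 903 to 1477 CPM in dsMock and 654 to 813 CPM in dsInR2 (3 of 18 higher, 2 lower, 11 of 37 listed genes at 0 reads), and epidermis and trachea genes to 3.29 to 16.2 and 7.54 to 20.8 CPM (1 of 6 higher), with 32 of 53 listed genes at 0 reads. Ovary and germline genes summed to 94.98 to 165 CPM in dsMock and 75.3 to 124 CPM in dsInR2 (1 of 4 higher, 2 lower), and nervous tissue genes to 35.4 to 41.0 and 38.5 to 45.8 CPM (3 of 13 higher, 5 of 21 listed genes at 0 reads). Of all tested genes, 17.6% were higher and 14.7% lower in this comparison. No gene of these lists passed in dsInR1 or dsInR3 against dsMock, and the part of other cells in the Eip74EF and RXR results was not tested.

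The 3 genes differed in how much they varied within a group. The within-group SD of log2 CPM was 0.83 for EcR, larger than in 85.3% of the tested genes, 0.51 for Eip74EF, larger than in 68.6%, and 0.30 for Eip75B, larger than in 36.4% (all on 12 residual degrees of freedom, with a median over tested genes of 0.37). For EcR the highest library was 5.17 times the lowest in dsInR1 and 6.33 times in dsInR2, against 2.21 times in dsInR3 and 1.70 times in dsMock. EcR was counted with 250 to 2441 reads per library, a counting error of 2.02 to 6.32% (1 SD).

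**Figure D3:**
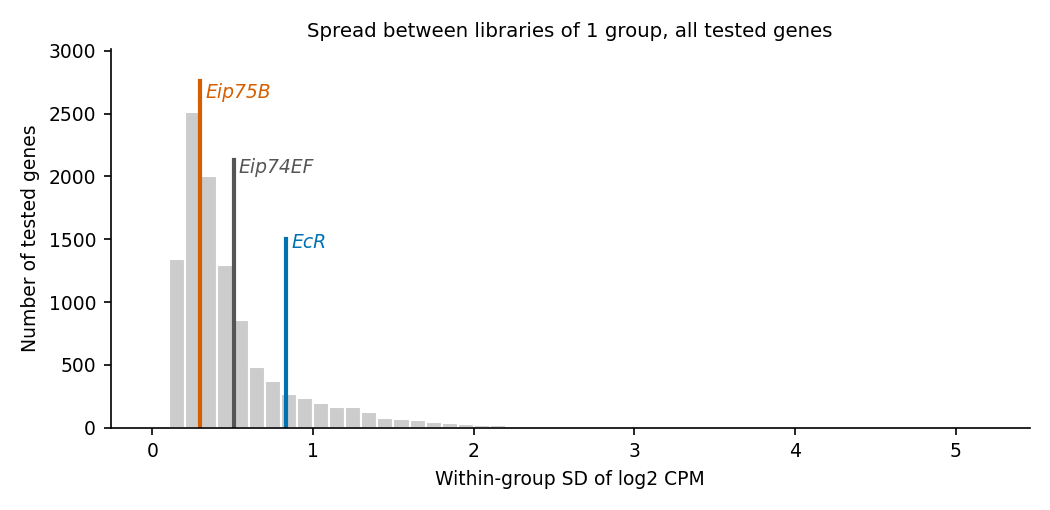
Number of tested genes (bars, in steps of 0.1) by within-group SD of log2 CPM over the 16 libraries, with the 3 genes as vertical lines whose heights carry no value. Eip75B (0.30) lies below the median of 0.37, and Eip74EF (0.51) and EcR (0.83) lie above it.

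Departures of the libraries from their group means were compared between the 3 genes over 16 libraries, in 3 pairs. For EcR and Eip75B Pearson's r was 0.43 (permutation p = 0.202, adjusted p = 0.606) and Spearman's rho was 0.36 (permutation p = 0.259, adjusted p = 0.702). Without the 2 libraries whose EcR lay farthest from the median (dsInR2 8 and dsInR1 2), r was 0.23. For EcR and Eip74EF r was -0.14 (permutation p = 0.649) and rho -0.11 (permutation p = 0.702), and for Eip74EF and Eip75B r was -0.16 (permutation p = 0.585) and rho -0.17 (permutation p = 0.581). None of the 3 pairs passed.

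Among 10535 other tested genes, those with a product name whose departures from the group means were most like those of EcR over the 16 libraries included Arl4a, a small GTPase (r = 0.81), Lpgat1_1, an acyltransferase of phospholipids (0.79), inx1_1, a gap junction innexin (0.79), and STX12, a syntaxin of membrane fusion (0.79). For Eip75B they were Kctd16 (r = 0.80), the hexosaminidase HEXDC_0 (0.78), the dual oxidase Duox (0.77), the RNA-binding translational repressor pum (0.76) and the aminopeptidase XPNPEP1_1 (0.76). Some of these genes had few reads, with 2 to 34 per library for Kctd16, 0 to 26 for XPNPEP1_1 and 9 to 89 for Lpgat1_1. Duox had 0 to 20 reads in dsInR2 and 21 to 621 in dsMock. The r values are descriptions, chosen as the highest of many, and the libraries share their depth and composition across genes.

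Beyond the 3 genes, lists of the ecdysone pathway held 28 further genes, of which 18 were tested and 7 had no read in any library. In dsInR2 against dsMock 5 of the 18 were higher and 3 lower, with a median log2 fold change of -0.10 beside 0.04 over all tested genes, and 17.6% and 14.7% of all tested genes passed as higher and lower. In dsInR1 and in dsInR3 against dsMock, and in dsInR1 against dsInR3, 0 of the 18 passed in edgeR or in DESeq2, and 0, 5 and 4 of them had an edgeR unadjusted p under 0.05. Of all tested genes, 0%, 0.304% and 0% passed in these comparisons, and 3.29%, 14.7% and 9.21% had an unadjusted p under 0.05. In dsInR1 against dsInR2 3 of 18 were higher and 6 lower, beside 14.3% and 16.8% of all tested genes, and in dsInR2 against dsInR3 5 were higher and 3 lower, beside 11.6% and 11.3%. The count of 8 in dsInR2 against dsInR3 was 5 without dsInR3 library 5.

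The 4 genes found for the list of ecdysteroid synthesis were nearly silent in this tissue. The search also covered neverland, shroud, shadow and shade, and no gene was found under these names, so they were not measured. The 2 cytochrome P450 genes with the symbols spo_0 and spo_1, named after the fly gene spook of the early steps, had 0 reads. The gene with the symbol dib (disembodied), a hydroxylase of the late steps, had 34 reads over the 16 libraries, and phm (phantom), which also acts in the late steps, had 116. Only phm was tested, and it did not pass in any comparison. EGT, the glucosyltransferase named after its action on ecdysteroids in baculoviruses, was the 1 gene of the inactivation and transport list and had no read.

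The nuclear receptor list held 13 genes, EcR, Eip75B and Eip78C included, of which 11 were tested, and in dsInR2 against dsMock 2 rose and 1, RXR, fell, beside 17.6% and 14.7% of all tested genes. ESRRG (C0J52_11720), annotated as an estrogen-related receptor and in Drosophila a regulator of glycolytic genes, rose from 0.55, 0.63, 0.70 and 0.45 CPM in dsMock libraries 1, 3, 4 and 5 to 3.53, 4.08, 2.99 and 2.03 CPM in dsInR2 libraries 1, 4, 7 and 8 (fitted difference 2.43 on the log2 scale, SE 0.65, edgeR adjusted p = 0.0092). The groups did not overlap, as for 15.7% of tested genes in that direction, and these levels rest on 8 to 104 reads per library. The hepatocyte nuclear factor 4 gene hnf4b (C0J52_07640), in Drosophila a regulator of lipid breakdown, stood at 42.0, 35.0, 47.7 and 42.6 CPM in dsMock and at 145, 88.2, 75.3 and 31.7 CPM in dsInR2 (log2 fold change 1.02, SE 0.36, edgeR adjusted p = 0.0390). Library 8 of dsInR2 lay below all dsMock libraries, and the hnf4b call was lost without library 1 or 4 of dsInR2 (0.64 and 1.003) and without any of dsMock libraries 1, 3, 4 and 5 (0.97, 0.95, 1.09 and 1.03). In dsInR3 hnf4b stood at 131, 72.1, 48.3 and 74.7 CPM in libraries 3, 5, 6 and 7. Its log2 fold change in dsInR3 against dsMock of 0.96 did not pass (SE 0.36, edgeR adjusted p = 0.21). For hnf4b, dsInR2 against dsInR3 gave 0.055 (SE 0.35, edgeR adjusted p = 0.931), so the rise was not particular to dsInR2. FTZ-F1, a competence factor for ecdysone responses in Drosophila, did not pass in any comparison, and neither did HR38 or knrl. Hr96, Hr78 and svp passed only between receptor treatments. Hr96 was higher in dsInR2 than in dsInR1 and dsInR3 (edgeR adjusted p = 0.0393 and 0.0474). The shares of all tested genes called in these directions were 16.8% and 11.6%. Library 8 of dsInR2 stood at 1.89 CPM for Hr96, below every dsInR1 (1.93 to 2.63 CPM) and dsInR3 library (1.93 to 2.71 CPM). Also higher in dsInR2 than in dsInR3 was svp (edgeR adjusted p = 0.0492), with groups that overlapped (5.82 to 17.4 and 3.65 to 7.48 CPM). Hr78 was lower in dsInR2 than in dsInR3 (edgeR adjusted p = 0.0189), as were 11.3% of all tested genes.

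Of the list of early and late response factors, 4 genes were tested, and beside Eip74EF the lactate dehydrogenase ImpL3 passed in dsInR2 against dsMock, both as higher, as did 17.6% of all tested genes. ImpL3 (C0J52_14874), an enzyme of anaerobic glycolysis with the symbol of an ecdysone-inducible Drosophila gene, stood at 16.5, 11.2, 15.04 and 13.98 CPM in dsMock and at 26.1, 24.5, 29.8 and 25.9 CPM in dsInR2 (log2 fold change 0.91, SE 0.20, edgeR adjusted p = 0.0033). Every dsInR2 library was above every dsMock library, as for 15.7% of all tested genes. The 2 neighbouring genes with the symbol Eip71CD, which encode methionine sulfoxide reductases, did not pass in any comparison, and the division of reads between them is uncertain.

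Of 3 tested chaperones and cofactors of the receptor, 2 rose in dsInR2 against dsMock, where 17.6% of all tested genes were higher. Hsp83 (C0J52_05508), the Hsp90 chaperone that helps load ligand into steroid receptors, stood at 18.9, 77.96, 41.7 and 24.8 CPM in dsMock libraries 1, 3, 4 and 5 and at 136, 138, 92.99 and 113 CPM in dsInR2 libraries 1, 4, 7 and 8 (fitted difference 1.56 on the log2 scale, SE 0.38, edgeR adjusted p = 0.0058). FKBP4 (C0J52_01076), an immunophilin that works with Hsp90, stood at 26.3, 30.8, 31.9 and 26.3 CPM in dsMock and at 41.2, 41.2, 37.2 and 41.2 CPM in dsInR2 (0.48, SE 0.11, edgeR adjusted p = 0.0042). Neither gene overlapped between the 2 groups, as for 15.7% of all tested genes in that direction. In dsInR3 Hsp83 was 143, 82.6, 71.0 and 57.9 CPM in libraries 3, 5, 6 and 7, and its log2 fold change against dsMock of 1.12 did not pass (SE 0.38, edgeR adjusted p = 0.172).

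The list of ecdysis peptides and their partners held 5 genes. Burs had 2 reads in all, Pburs and the eclosion hormone ECLH had none, and the 2 tested genes are not peptides of ecdysis. They are tor (C0J52_02438), the receptor tyrosine kinase Torso that in Drosophila receives prothoracicotropic hormone in the gland that makes ecdysone, and tsl (C0J52_01091), Torso-like, a secreted protein that acts with Torso in the fly embryo. Both fell in dsInR2, as did 14.7% of all tested genes. Torso stood at 11.9, 9.65, 6.89 and 9.90 CPM in dsMock and at 1.56, 2.40, 2.62 and 0.71 CPM in dsInR2 (log2 fold change -2.39, SE 0.39, edgeR adjusted p = 3.0e-04). Torso-like stood at 658, 684, 427 and 496 CPM in dsMock and at 109, 26.5, 49.5 and 142 CPM in dsInR2 (-2.79, SE 0.49, edgeR adjusted p = 5.4e-04). Neither gene overlapped between dsMock and dsInR2, as for 14.4% of tested genes in that direction. Both were also lower in dsInR2 than in dsInR1 and dsInR3, as were 14.3% and 11.3% of all tested genes. Without any 1 library, tor, tsl, RXR, ImpL3, FKBP4, Hsp83 and ESRRG each stayed past the threshold in dsInR2 against dsMock.

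**Figure D4:**
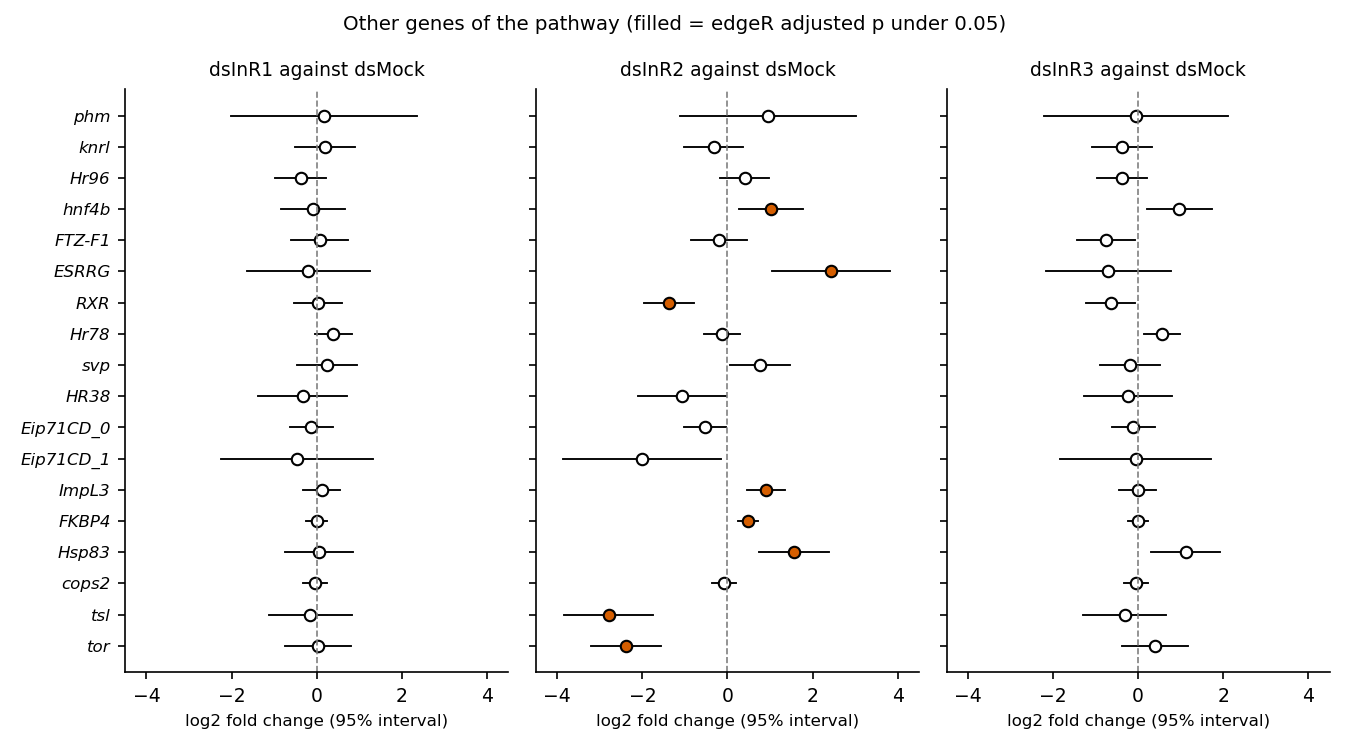
Fitted log2 fold change against dsMock (points) with its 95% interval (lines) of the 18 other tested genes of the pathway lists in dsInR1, dsInR2 and dsInR3, from 4 libraries per group; filled points have an edgeR adjusted p under 0.05. All 8 filled points, 5 higher and 3 lower, are in dsInR2 against dsMock, and the 3 panels share the dsMock libraries.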

How the data were processed

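Whole-number read counts, not normalized, came from the table deposited by the authors; 32 other columns of per-library values were not used, so levels of different genes were not set side by side per length. Libraries were polyA-selected with a stranded kit, per the labels' protocols. The submitters' processing notes name FastQC, Trimmomatic, HISAT2 and StringTie. The use of strand in counting and the treatment of reads that match several genes are not stated. Columns were assigned to groups by name, and the polyhedrin columns to dsMock as the remaining group.

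Counts were tested with edgeR 4.0.16 in R 4.3.3 (TMM, filterByExpr, 10536 genes, 1 coefficient per group over all 16 libraries, two-sided), with Benjamini-Hochberg adjustment over all tested genes; the script was tested on simulated data. SE is the absolute log2 fold change divided by the square root of the F statistic. Log2 CPM used a prior count of 2. Alternatives were DESeq2 1.42.0, RLE size factors, no filter, only the groups compared, removal of the most abundant gene, a block by column number and leaving out each library. Genes named are the 3 chosen by product name, RXR and called genes of the lists, and for EcR and Eip75B the 5 with a product name most like them by r, of which 1 is not reported here; the not-called genes named in the list paragraphs were added after their values were seen. Members and lists were chosen with earlier results of these data known. Some name patterns that also matched unrelated products were narrowed after the table was read, but not the one that took in NMNAT1. All 28676 genes matched the Bger_1.1 reference annotation, which supplied coordinates. Names were not checked by sequence.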

Additional observations from a re-analysis of the deposited data

Results flagged for a closer look

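In dsInR3, Eip74EF in library 5 stood at 2.22 CPM, apart from the other 3 libraries of the group (3.93 to 4.15 CPM) by more than Dixon's 95% critical value for 4 samples allows. Eip75B in library 3 of dsInR3 stood at 214 CPM, apart from the others (267 to 276 CPM) in the same sense; in this library C0J52_15443 took 35.1% of the reads, and the part of this was not tested. Both came from a screen of 12 groups (3 genes in 4 groups), where chance flags about 1 in 20.

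The effects of 2 receptor treatments on Eip74EF, each against dsMock, differed from each other by a test of the difference: by -1.45 on the log2 scale for dsInR1 against dsInR2 and by 1.27 for dsInR2 against dsInR3 (edgeR adjusted p = 0.0051 and 0.0142). Since dsMock cancels in this difference, these are the comparisons between receptor treatments already given above and not a further test.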

How the results depend on the processing

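Of 880 values (40 results under 22 alternatives each), 827 kept their direction and side of the threshold or stayed within 1.5 times for a count, and 53 did not; the cause was not tested. Eip74EF in dsInR2 against dsMock was 1.11 with only the 2 groups in the fit and 0.81 to 1.38 with 1 library left out, and the count of the 3 genes that passed went from 1 to 0 and 0 to 1. In dsInR2 against dsInR3, leaving out 1 library gave 0.94 to 1.45 for Eip74EF, -0.63 to -0.42 for Eip75B and 0 to 2 genes that passed; DESeq2 gave 2 and -0.57 for Eip75B. Signs turned with 1 library left out for EcR in dsInR1 against dsInR2 (-0.69 to 0.55), Eip74EF in dsInR3 against dsMock (-0.31 to 0.11), and Eip75B (-0.021 to 0.24) and RXR (-0.16 to 0.17) in dsInR1 against dsMock.

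Column numbers did not pair the libraries: departures of 10 same-numbered pairs correlated at -0.13 to 0.15, 1 of them over 0.1, and 2 of 14 libraries correlated best with their own number. With the number as a replicate block, EcR in dsInR2 against dsMock was -1.51 (edgeR adjusted p = 0.0410) and 2 genes passed. Under this block 0 genes passed in dsInR1 against dsInR2 (Eip74EF -1.41, adjusted p = 0.0696, EcR 0.29) and 0 in dsInR2 against dsInR3 (Eip74EF 1.35, adjusted p = 0.0669, EcR -0.020), and against dsMock Eip74EF was 0.012 in dsInR1 and 0.069 in dsInR3, and Eip75B -0.12 and RXR -0.13 in dsInR1. Of the 18 other pathway genes, 4 passed in each of these 2 comparisons, against 9 and 8 without the block. FKBP4 lost its call under the block, and hnf4b lost its call with only the 2 groups in the fit. Over all genes, DESeq2 called 443 against 32 in dsInR3 against dsMock. Eip74EF was counted with 39 to 355 reads per library, a counting error of 5.31 to 16.01% (1 SD), and its within-group SD of log2 CPM was 0.51. The part of depth in the precision of Eip74EF was not tested.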
